A study of Mus musculus with 4 samples.

Results

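The genes described here are 10 markers of recruited and lipid-associated macrophages: Trem2, Gpnmb, Cd9, Ccr2, Cx3cr1, Lyz1, Lyz2, Aif1, Itgam and Itgax. They were found on the array through the RefSeq accession of each probe, which gave 15 probes for the 10 genes. A probe was kept if either genotype was well above background with both dyes in at least 1 of the pairs. This left 13 probes, with at least 1 for every gene, so that all 10 are among the 11487 genes measured, out of 16358 genes named on the array.

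Resident macrophages of the liver, the Kupffer cells, sit in the sinusoids and mostly maintain themselves. When the organ is injured, blood monocytes enter through chemokine receptors such as CCR2 and become macrophages. In livers with steatosis or fibrosis some of these cells take on a lipid-associated state, marked by the lipid receptor TREM2, the glycoprotein GPNMB and the tetraspanin CD9. Lysozyme, AIF1 (IBA1) and the integrin chains CD11b and CD11c are broader markers of myeloid cells.

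RNA of perfused liver hepatocytes from 4 C57BL/6J mice was measured on 4 two-colour arrays. HepKO mice carried floxed alleles of Pnpt1, the gene of the mitochondrial RNA exonuclease PNPase, on both chromosomes together with 1 copy of Albumin-Cre, and WT mice carried the same floxed alleles without Cre. Albumin-Cre acts in hepatocytes, so that the macrophages of a HepKO mouse are not its target. There was 1 HepKO and WT pair labelled male, aged 12.29 weeks, and 1 pair labelled female, aged 4.29 weeks. Each pair was matched for age, sex and litter, and was hybridised on 2 arrays of 1 slide with the dyes exchanged (HepKO in Cy5 in replicate 1 and in Cy3 in replicate 2). The labels' protocols name a collagenase perfusion and washes by centrifugation but no sort that would keep hepatocytes alone. The labels give a second age for the pair labelled male.

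Before the results, the labels were checked. All 11 measured genes of the hepatocyte list were above background in both genotypes. The sex-chromosome genes went against the labelled sex. Ddx3y, Eif2s3y and Kdm5d, which lie on the Y chromosome, were above background on 2 of 4 arrays in either genotype, and these were the 2 arrays of the pair labelled female. Xist, which silences the second X chromosome of females, was above background only on the 2 arrays of the pair labelled male. Zfy2, also on the Y chromosome, gave no such separation. Pairs are therefore called by their labels. A ratio compares the mice of 1 pair, so the labelled sex does not enter it. Differences between the pairs in age, sex or slide cannot be told apart.

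Values below are normalized intensities in arbitrary units and the log2 ratio of HepKO over WT. The 2 arrays of a pair share their RNA and were averaged, so that n = 2 pairs throughout. Intensities are listed in the order pair labelled male, replicates 1 and 2, then pair labelled female, replicates 1 and 2. A mean log2 ratio is given ± the moderated SE of the limma model, with its Benjamini-Hochberg adjusted p over the 11487 genes and a threshold of 0.05. The SD of log2 ratios over probes was between 0.632 and 0.925 on the 4 arrays, and 53.6% to 58.6% of probes in HepKO and 48.1% to 54.5% in WT were well above background. Over all genes measured the median log2 ratio was 0.084.

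Pnpt1, the targeted gene, had a brighter and a dimmer probe. The brighter probe, A_51_P453343, had intensities of 2772, 2594, 1692 and 1645 in HepKO and 2236, 2491, 2208 and 2142 in WT. Its ratio was above 0 in the pair labelled male and below 0 in the pair labelled female, with a mean of -0.10 ± 0.20 (adjusted p = 0.747). The dimmer probe, A_52_P229271, had a mean of -0.52 and was below 0 on all 4 arrays. The sources used here do not give the deleted part of the gene or the place of the probes in it, and a probe outside that part would not check the genotype.

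The marker genes were higher in HepKO than in WT. Of the 10 genes, 8 passed the test as higher, where 12.0% of all genes measured did, and none passed as lower, where 3.75% of all genes did. All 10 had a ratio above 0 on all 4 arrays, which 39.5% of all genes had. For 9 of the 10, all but Itgam, the lowest HepKO intensity lay above the highest WT intensity, as for 30.5% of all genes. Their median log2 ratio was 1.98, with 2.16 in the pair labelled male and 1.41 in the pair labelled female.

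In RNA from a mixed cell preparation, more cells of a type and more RNA per cell cannot be told apart. Of the 10 genes, 4 (Ccr2, Cx3cr1, Gpnmb and Itgam) were kept only through their HepKO signal, and a probe kept that way was likely to differ. The other 6 were also kept through WT, and all 6 of them rose. In a fit on genes above background on every array in both genotypes, 1233 of 9829 passed as higher, these 6 among them. The calls depend on the background model: when its parameters were estimated on all spots, outlier spots included, limma called 0 of the 10 genes, with 8 at an unadjusted p under 0.05. Replicate 2 of the pair labelled female had 39 spots with an outlying local background, which reached 41156.5 in green against a median of 29. With that array left out, the same fit on all spots called 8 of the 10 again. Without the filter on dim probes, limma called 0 of the 10 and 0 of all genes (smallest adjusted p = 0.0689), with 9 of the 10 at an unadjusted p under 0.05.

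**Figure D1:**
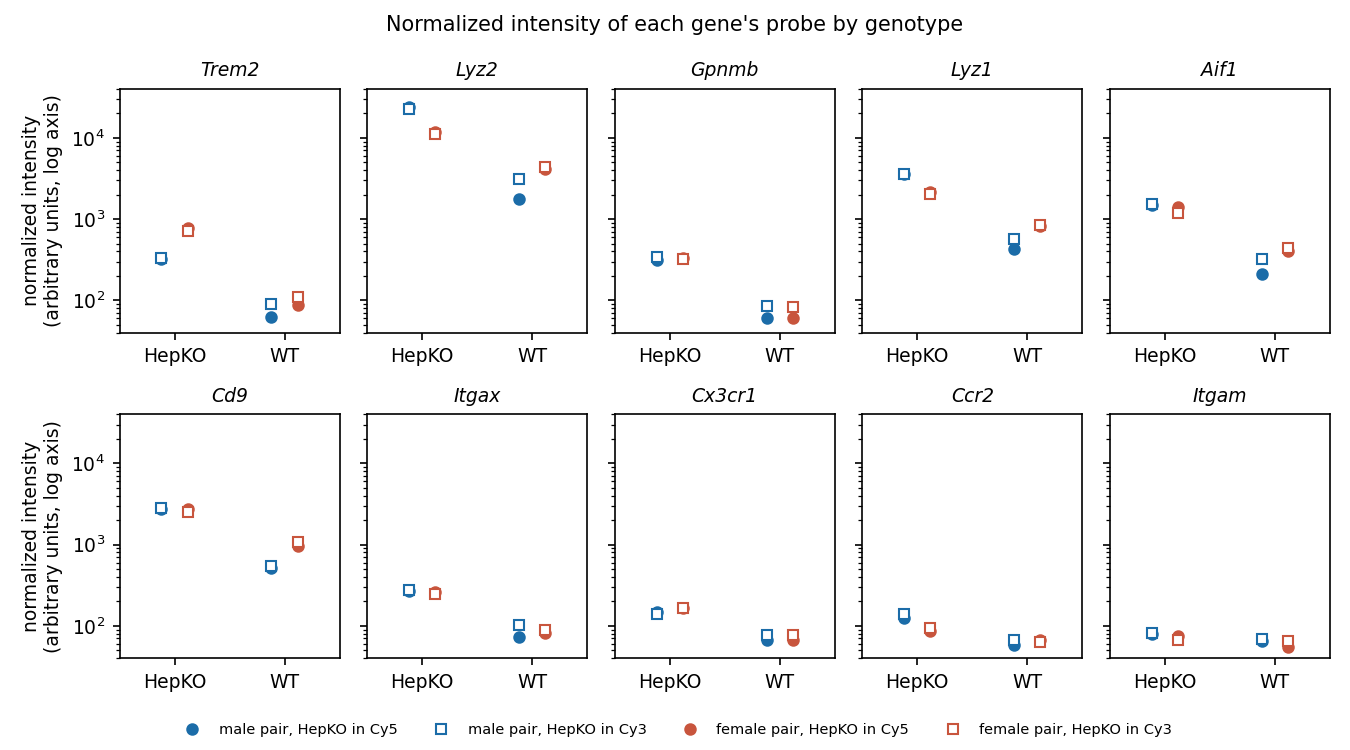
Normalized intensity (log axis, arbitrary units) of the probe that stands for each of the 10 genes, HepKO on the left and WT on the right of each panel, with 1 point per array, coloured by pair and shaped by dye orientation. Every HepKO point lies above every WT point in all panels but that of Itgam.

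Among the receptors that guide monocytes, Cx3cr1 and Ccr2 were dim. Cx3cr1 encodes the fractalkine receptor, which marks patrolling monocytes and monocyte-derived macrophages. Its intensities were 146, 141, 168 and 166 in HepKO, against 66.7, 76.4, 66.8 and 78.1 in WT. HepKO was well above background on 4 of 4 arrays and WT on 1 of 4. The groups did not overlap, and the ratio rose by a mean of 1.11 ± 0.15 (adjusted p = 0.0236), with 1.01 in the pair labelled male and 1.21 in the pair labelled female. A second Cx3cr1 probe was not kept and had a mean ratio of 0.13.

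Ccr2 encodes the receptor for the monocyte chemokine CCL2. Its intensities were 126, 138, 86.1 and 93.2 in HepKO, against 58.4, 67.0, 67.6 and 63.2 in WT, where no array was well above background. The groups did not overlap, but both HepKO values of the pair labelled female were well under those of the pair labelled male. The log2 ratio of 0.77 ± 0.21 did not pass (adjusted p = 0.0822), and the pair values were 1.08 and 0.46. Where WT was above background on no array, a fold is a lower bound, taken against the higher of the WT signal and the lowest signal above background on that array. Against that floor, Ccr2 was at least 1.67-fold higher in HepKO (mean log2 intensity 6.77 in HepKO and 6.00 in WT).

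Ligands, adaptors and binding partners of the 10 genes were read as a list of 16 partner genes, of which 7 rose, none passed as lower, and the median log2 ratio was 0.98. Among the ligands, Ccl2, the main ligand of CCR2, had intensities of 11415, 10650, 1790.5 and 1457 in HepKO, against 87.9, 211, 102 and 126 in WT. The pair labelled male stood far above the pair labelled female in HepKO, and both stood above WT. Ccl2 rose by 5.09 ± 0.63 (adjusted p = 0.0208), with 6.34 in the pair labelled male and 3.83 in the pair labelled female. Ccl7, another CCR2 ligand, was above background on no WT array and was at least 6.05-fold higher in HepKO, with a log2 ratio of 2.63 ± 0.47 (adjusted p = 0.0378). Ccl12, also a CCR2 ligand, had 0.99 ± 0.23 and did not pass (adjusted p = 0.0608). Cx3cl1, which encodes fractalkine, the ligand of CX3CR1, had 0.38 ± 0.15 and did not pass either (adjusted p = 0.148).

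Trem2 was higher in HepKO on all 4 arrays. It encodes a receptor for lipids and lipoproteins on macrophages that signals through the adaptor TYROBP (DAP12). Its brighter probe had 321, 332, 770.2 and 721 in HepKO, against 61.7, 89.5, 87.5 and 109 in WT. All WT values lay far below all HepKO values, and the pair labelled female was the higher one within HepKO. The log2 ratio was 2.53 ± 0.24 (adjusted p = 0.0150), with 2.14 in the pair labelled male and 2.93 in the pair labelled female. A second, dimmer Trem2 probe gave 1.09 ± 0.22 and, in a fit over all kept probes, did not pass (adjusted p = 0.0608).

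The signalling partners of TREM2 were higher as well. Tyrobp had 3951, 4048, 2907 and 2929 in HepKO, against 418, 542, 780.0 and 842 in WT, and its ratio rose by 2.46 ± 0.33 (adjusted p = 0.0237). The kinase Syk, recruited by TYROBP, rose by 1.40 ± 0.18 (adjusted p = 0.0213), and the phospholipase Plcg2, which acts below it, by 1.95 ± 0.28 (adjusted p = 0.0268). Hcst, the related adaptor DAP10, rose by 0.76 ± 0.16 (adjusted p = 0.0483). These adaptors and enzymes also serve many other receptors of myeloid and NK cells. Without replicate 2 of the pair labelled male, Hcst (adjusted p = 0.0763), Plcg2 (adjusted p = 0.0518) and Ccl7 (adjusted p = 0.0591) no longer passed, and without replicate 1 of the pair labelled female, Hcst (adjusted p = 0.0737) and Ccl7 (adjusted p = 0.0604) did not.

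Gpnmb encodes a transmembrane glycoprotein of lysosomes and the cell surface that macrophages make under lysosomal and lipid stress. Its kept probe had 312, 346, 337 and 323 in HepKO, against 60.5, 85.3, 60.4 and 83.6 in WT, where no array was above background. The 4 HepKO values lay close together and the pairs gave nearly the same ratio, 2.19 and 2.21. Gpnmb was at least 4.52-fold higher in HepKO (mean log2 intensity 8.36 in HepKO and 6.16 in WT), with a fitted log2 ratio of 2.20 ± 0.14 (adjusted p = 0.0114). A second Gpnmb probe was above background in neither genotype and was not kept. Mitf, Tfe3 and Tfeb, transcription factors of lysosomal genes that can drive Gpnmb, had 0.18 ± 0.14 (adjusted p = 0.422), 0.35 ± 0.15 (adjusted p = 0.181) and -0.17 ± 0.14 (adjusted p = 0.435).

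Cd9 encodes a tetraspanin, a membrane protein that groups others into microdomains, and it is not restricted to macrophages. Its intensities were 2749, 2797, 2745 and 2556 in HepKO, against 512, 551, 962 and 1086 in WT. HepKO was level across the pairs, and WT was higher in the pair labelled female. The ratio rose by 1.88 ± 0.29 (adjusted p = 0.0284), with 2.39 in the pair labelled male and 1.37 in the pair labelled female. Of the proteins that bind CD9, none passed: Cd81 had -0.34 ± 0.15 (adjusted p = 0.185), Ptgfrn 0.09 ± 0.14 (adjusted p = 0.676) and Igsf8 0.96 ± 0.23 (adjusted p = 0.0675).

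The pair of integrin alpha chains gave unlike values, with Itgam close to the limit of measurement. Itgax encodes CD11c, found on dendritic cells and on lipid-associated macrophages. It had 268, 277, 259.6 and 246 in HepKO, against 73.2, 103, 82.7 and 89.6 in WT. The groups did not overlap, the pairs gave 1.65 and 1.55, and the ratio rose by 1.60 ± 0.14 (adjusted p = 0.0150).

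Itgam encodes CD11b, a marker of monocytes, macrophages and neutrophils. It had 78.7, 80.7, 75.0 and 67.8 in HepKO, against 65.7, 69.5, 55.6 and 65.8 in WT. It was above background on 2 of 4 arrays in HepKO and on none in WT, so both groups were close to the limit of measurement. The groups overlapped, and the ratio of 0.24 ± 0.14 did not pass (adjusted p = 0.294). Itgam and Itgax lie next to each other on chromosome 7, with 0 protein-coding genes between them.

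Itgb2 encodes CD18, the beta chain that both alpha chains need. It had 1098, 1032, 955 and 832 in HepKO, against 132, 188, 216 and 243 in WT. HepKO lay above WT on every array, and the ratio rose by 2.36 ± 0.24 (adjusted p = 0.0160). Icam1, an endothelial and hepatocyte ligand of these integrins, had 1.43 ± 0.33 and did not pass (adjusted p = 0.0591).

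Both lysozyme genes were well above background in either genotype. Lyz2 encodes the lysozyme of macrophages, monocytes and neutrophils, and Lyz1 that of the Paneth cells of the gut. Lyz2 had 23804, 22569, 11759 and 11297 in HepKO, against 1762, 3108, 4101 and 4373 in WT. Both pairs were separated by genotype, and in HepKO the pair labelled male was higher while in WT it was lower. The ratio rose by 2.38 ± 0.48 (adjusted p = 0.0474), with 3.31 and 1.44 in the pairs labelled male and female.

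Lyz1 had the same layout, with 3624, 3589.8, 2145.5 and 2023 in HepKO, against 431, 575, 829 and 841 in WT. Its ratio rose by 2.09 ± 0.40 (adjusted p = 0.0438), with 2.86 and 1.32 in the pairs. The coding sequences of Lyz1 and Lyz2 are near-identical, so their probes may share signal and the values of either gene are uncertain. Both calls sat close to the threshold and were lost without replicate 2 of the pair labelled male (adjusted p = 0.0658 for Lyz1 and 0.0755 for Lyz2) or replicate 1 of the pair labelled female (0.0591 and 0.0635). A second, dimmer Lyz2 probe gave 1.17 ± 0.23 (adjusted p = 0.0567 over all kept probes), and in that fit neither brighter lysozyme probe passed (adjusted p = 0.0589 for Lyz1 and 0.0629 for Lyz2).

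Aif1 encodes IBA1, an actin-binding protein of macrophages and microglia. It had 1509, 1536, 1428 and 1197 in HepKO, against 211, 324, 410.4 and 446 in WT. HepKO was similar in both pairs, and WT was lower in the pair labelled male. The ratio rose by 2.08 ± 0.27 (adjusted p = 0.0220), and a second Aif1 probe rose by 1.67 ± 0.21 in the fit over all kept probes (adjusted p = 0.0317).

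**Figure D2:**
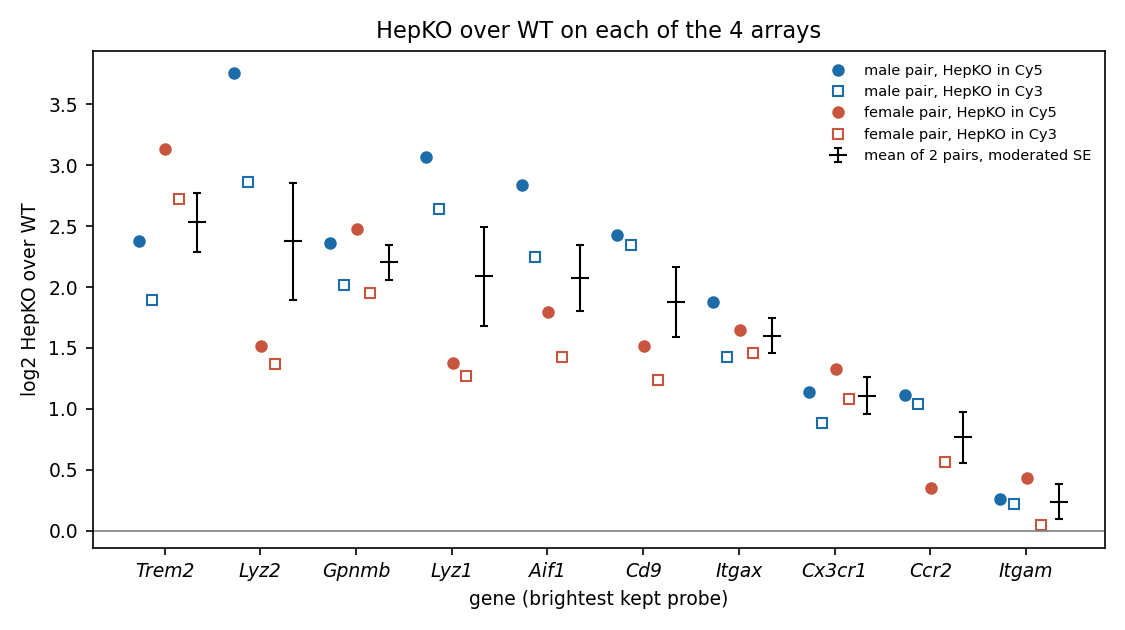
Log2 ratio of HepKO over WT for each of the 10 genes on each of the 4 arrays (points, by pair and dye orientation), with the mean of the 2 pairs and its moderated SE (black). All points lie above 0. The lysozymes, Aif1, Cd9 and Ccr2 are higher in the pair labelled male, Trem2 and Cx3cr1 in the pair labelled female, and the pair means of Gpnmb, Itgax and Itgam lie close together.

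The order of the 10 genes by ratio is not resolved. Ccr2, Gpnmb and Itgam were above background on no WT array and Cx3cr1 on 1 of 4, so that their ratios have no set place among the others. For Trem2 and Lyz2 the order turned between the pairs. Trem2 minus Lyz2 was -1.17 in the pair labelled male and 1.49 in the pair labelled female. Aif1 minus Cd9 had the same sign in both pairs, 0.16 and 0.24.

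For dim genes the size of the ratio followed the background correction. An offset of 50 is added to every signal, which pulls the ratio of a dim gene towards 0. With an offset of 10 in its place, 9 of the 10 genes passed, with Gpnmb at 3.35, Cx3cr1 at 1.91 and Ccr2 at 1.56, and Itgam at 0.62 did not (adjusted p = 0.0811). More of all genes passed as higher with that offset too, 1742 of 11487 against 1380 with the offset of 50. The log ratios of the scanner software gave 5.53 for Gpnmb, 4.27 for Trem2, 3.80 for Cx3cr1, 3.62 for Ccr2, 2.82 for Itgax and 2.14 for Itgam. Under those ratios all 6 of these genes passed, and Lyz1 at 2.11 and Lyz2 at 2.39 did not (adjusted p = 0.0579 and 0.0581). Of all 11487 genes, 1599 passed as higher under the same ratios. Lyz1, Lyz2, Aif1 and Cd9 are brighter, and their mean ratios moved by little between these settings.

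**Figure D3:**
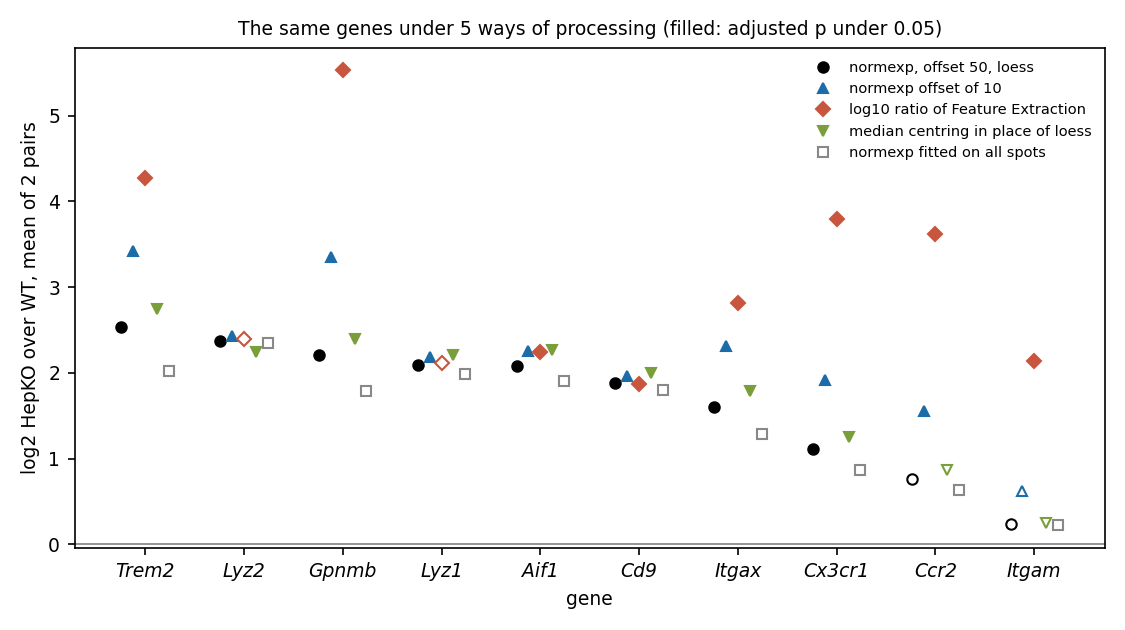
Log2 ratio of HepKO over WT (mean of 2 pairs) of the 10 genes under 5 ways of processing, filled where the adjusted p was under 0.05 and open where it was not. The dim genes Trem2, Gpnmb, Itgax, Cx3cr1, Ccr2 and Itgam spread widely, the bright ones lie close together, and no point is filled for normexp fitted on all spots.

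Other genes of the lipid-associated programme were read as a list of 18 measured genes. Of these, 12 rose, none passed as lower, and the median log2 ratio was 1.78. Spp1, which encodes osteopontin, rose by 3.96 ± 0.40 (adjusted p = 0.0159) and was higher in the pair labelled female (4.72) than in the pair labelled male (3.20). Cd63, a lysosomal tetraspanin, rose by 3.71 ± 0.16 (adjusted p = 0.00975), and Lgals3, which encodes galectin-3, by 3.59 ± 0.41 (adjusted p = 0.0183). Hepatocytes and bile duct cells can make several genes of this list, and its summed intensity was 386470 to 492130 in HepKO and 277790 to 439620 in WT. These ranges overlapped through Apoe, the gene of the lipoprotein apolipoprotein E that hepatocytes make in abundance, which had -0.48 ± 0.23 and did not pass (adjusted p = 0.224). Without Apoe, singled out after its values were seen, the other 17 genes summed to 225430 to 315180 in HepKO and 105320 to 117070 in WT. Fabp5 was above background in neither genotype.

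Marker lists of the macrophage lineages moved with the 10 genes. Of 14 monocyte genes 10 rose, with a median of 2.40, a summed intensity of 10658 to 26927 in HepKO and 1580.1 to 2795 in WT, and F13a1 above background on no WT array. Plac8 led the list with 4.07 ± 0.34 (adjusted p = 0.0140), followed by Ly6c1 with 3.40 ± 0.37 (adjusted p = 0.0177) and S100a4 with 3.39 ± 0.41 (adjusted p = 0.0199). Ly6c1 and Ly6c2 are near-identical, and endothelial cells make the first, so that the Ly6c1 value is uncertain.

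Markers of the resident Kupffer cells were higher too. Of 11 measured Kupffer cell genes 8 rose, with a median of 1.22 and a summed intensity of 69096 to 75928 in HepKO and 20578 to 28601 in WT. The scavenger receptor Marco rose by 4.26 ± 0.29 (adjusted p = 0.0117), the transcription factor Spic by 2.40 ± 0.24 (adjusted p = 0.0159) and Cd5l by 2.36 ± 0.32 (adjusted p = 0.0243). Clec4f and Timd4, which mark resident Kupffer cells, rose by 1.22 ± 0.19 (adjusted p = 0.0286) and 0.76 ± 0.15 (adjusted p = 0.0454), and Cd163 had -0.75 ± 0.18 and did not pass (adjusted p = 0.0663). These last 3 genes were picked after their values were seen.

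Genes shared by most macrophages gave the same picture. Of 14 measured, 10 rose, with a median of 1.71 and a summed intensity of 19510 to 22268 in HepKO and 5252.7 to 7184.3 in WT. The Fc receptor Fcgr1 led with 3.28 ± 0.40 (adjusted p = 0.0200), then Cybb, the NADPH oxidase subunit, with 2.86 ± 0.25 and Laptm5 with 2.51 ± 0.28.

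Lists of other non-hepatocyte cells were also higher in HepKO. Of 13 T and NK cell genes 7 rose, with a median of 0.92, led by Gzmb, a granzyme of cytotoxic cells, at 2.83 ± 0.35 (adjusted p = 0.0202). Cd3e, Cd4 and Ncr1 of that list had 0.06, 0.09 and 0.24 and did not pass (adjusted p = 0.772, 0.717 and 0.334). Of 11 endothelial genes 8 rose, with a median of 1.13, led by Lyve1, a marker of sinusoidal endothelium, at 2.07 ± 0.16 (adjusted p = 0.0130). Stab2, Tek and Tie1 of that list had 0.21, 0.18 and 0.58 and did not pass (adjusted p = 0.550, 0.620 and 0.0714). Of 11 stellate cell genes 5 rose, with a median of 0.78, led by the collagen gene Col3a1 at 2.14 ± 0.33 (adjusted p = 0.0294). Lrat and Des, among the stellate genes that did not pass, had 0.34 and -0.01 (adjusted p = 0.178 and 0.976). The genes named here as not passing were picked after their values were seen.

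Fewer genes passed in the remaining lists, which are small, where 12.0% of all genes measured passed as higher. Their counts were not tested against that share. Of 10 neutrophil genes 3 rose, with a median of 0.97 and S100a9 at 3.21 ± 0.18 (adjusted p = 0.0109). Of 10 dendritic cell genes, some of which mark the CD11c-positive cells that also carry Itgax, 2 rose, with a median of 0.30 and Clec10a at 1.45 ± 0.15 (adjusted p = 0.0166). Platelets gave 1 of 6 (median 0.42, led by Pf4), B cells 1 of 4 (median 0.35, led by Cd79b) and bile duct cells 0 of 5 (median 0.30). Of the 8 B cell genes with a named probe, 7 were above background on no WT array.

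The hepatocyte list stayed near the median of all genes. Of its 11 measured genes 1 rose (Hpx, 1.67 ± 0.15) and 1 fell (Cyp2e1, -2.38 ± 0.30), and the median was 0.14. Its summed intensity was 1138700 to 1590200 in HepKO and 973590 to 1428900 in WT. The part that more macrophages, more immune cells in general or more non-hepatocyte cells in the pellet had in the ratios of the 10 genes was not tested.

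**Figure D4:**
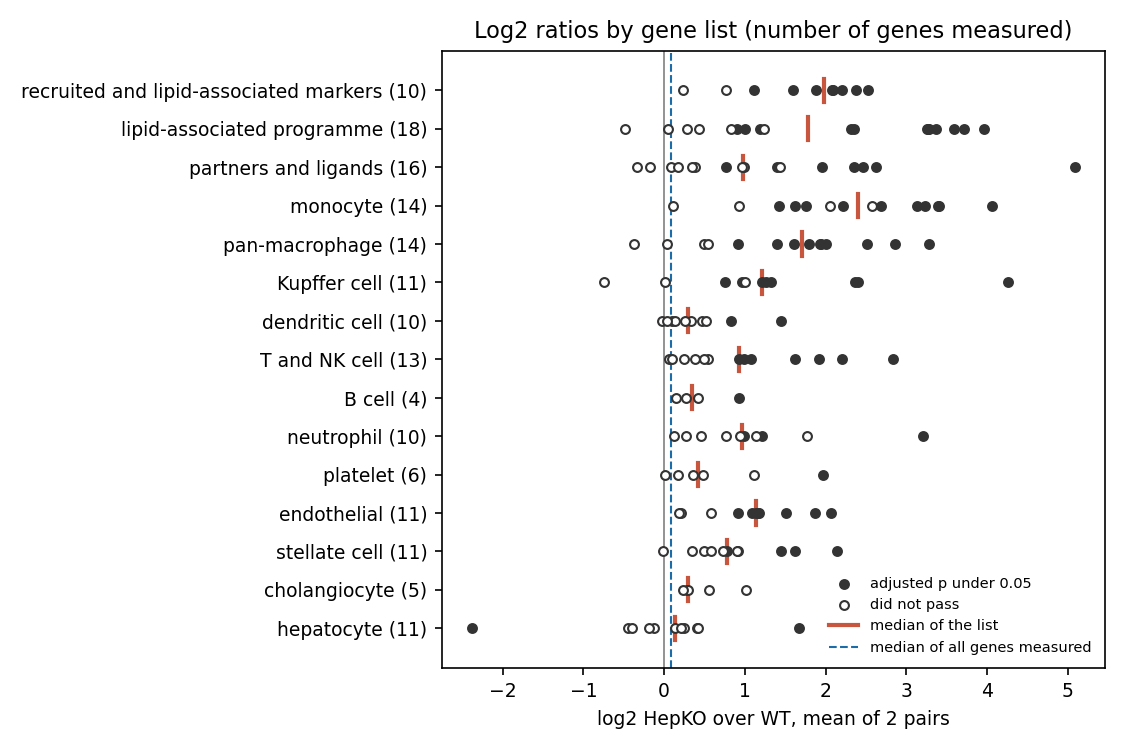
Log2 ratio of HepKO over WT (mean of 2 pairs) of each measured gene in the 10 marker genes and 14 other lists, filled where the adjusted p was under 0.05, with the median of each list (red) and of all genes measured (dashed line at 0.084). The medians of the macrophage lists, including that of Kupffer cells, lie to the right, and that of the hepatocyte list lies near the dashed line. Those of the endothelial, neutrophil, T and NK cell and stellate cell lists lie to the right as well.

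The promoters of the 10 genes are shown where they bear on genes that moved together. RefSeq sequences for assembly GRCm38.p6 covered all 10, from 250 bases before to 50 bases after each start, and were searched on both strands for 3 motifs. The core of the interferon-stimulated response element, GAAANNGAA, was found in 4 of the 10 windows (Cd9, Ccr2, Lyz1 and Aif1) and in 8.56% of all 32851 promoters of the table. GAGGAAGT, a string of PU.1 sites that does not cover every form of them, was in 0 of the 10 and in 3.20% of all. The C/EBP palindrome TTGCGCAA was in 0 of the 10 and in 0.183% of all. Of the 4 genes with the first motif, Ccr2 did not pass the test and the other 3 did. A match is a run of letters and not a site.

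The bases before the start of these 4 genes, and of Lyz2 beside its neighbour Lyz1, are given from 5′ to 3′ in the direction of the gene, with the GAAANNGAA match or its reverse complement in capitals. They cover chr6:125494761-125495010 (minus strand) for Cd9, chr9:124101933-124102182 (plus strand) for Ccr2, chr17:35176053-35176302 (minus strand) for Aif1, chr10:117292869-117293118 (minus strand) for Lyz1 and chr10:117282273-117282522 (minus strand) for Lyz2. Counted from the start of the gene, the match begins at -127 in Cd9, -86 in Ccr2 (reverse complement), -157 in Aif1 and -248 in Lyz1.
Cd9: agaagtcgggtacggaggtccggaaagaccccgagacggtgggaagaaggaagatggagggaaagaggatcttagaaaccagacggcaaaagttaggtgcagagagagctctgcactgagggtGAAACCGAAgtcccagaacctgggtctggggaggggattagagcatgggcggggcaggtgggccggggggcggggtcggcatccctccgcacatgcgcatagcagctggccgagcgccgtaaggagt
Ccr2: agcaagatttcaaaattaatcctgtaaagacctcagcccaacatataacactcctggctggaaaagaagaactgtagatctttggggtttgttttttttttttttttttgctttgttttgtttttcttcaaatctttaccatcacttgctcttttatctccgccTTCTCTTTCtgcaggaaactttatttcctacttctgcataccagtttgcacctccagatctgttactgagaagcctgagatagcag
Aif1: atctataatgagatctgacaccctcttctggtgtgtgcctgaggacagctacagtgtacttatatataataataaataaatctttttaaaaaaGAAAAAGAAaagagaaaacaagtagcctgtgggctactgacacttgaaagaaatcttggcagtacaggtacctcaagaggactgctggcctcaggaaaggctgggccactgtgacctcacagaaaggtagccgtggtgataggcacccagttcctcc
Lyz1: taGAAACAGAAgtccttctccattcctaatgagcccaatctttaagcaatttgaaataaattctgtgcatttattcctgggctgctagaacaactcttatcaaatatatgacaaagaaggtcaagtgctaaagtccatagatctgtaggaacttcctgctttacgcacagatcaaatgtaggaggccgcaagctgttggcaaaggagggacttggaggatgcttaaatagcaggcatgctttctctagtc
Lyz2: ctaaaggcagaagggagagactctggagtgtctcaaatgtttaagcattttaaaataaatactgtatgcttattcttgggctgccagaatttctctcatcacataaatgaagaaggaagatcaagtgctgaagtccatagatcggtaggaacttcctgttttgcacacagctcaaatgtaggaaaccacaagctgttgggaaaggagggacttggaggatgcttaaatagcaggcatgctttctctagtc
Lyz1 and Lyz2 are neighbours on chromosome 10 with 0 protein-coding genes between them, and 92 of the 100 bases before their starts were identical without gaps. For Itgam and Itgax, also neighbours, 29 of 100 bases were identical. Their ratios of 0.24 and 1.60 cannot be read beside this, since Itgam was close to the limit of measurement. Under the log ratios of the scanner software Itgam had 2.14 and Itgax 2.82.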

How the data were processed

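Agilent Feature Extraction 10.2.1.3 produced the spot values, per the file headers. The deposited intensity of a spot is its mean signal, used here with the median of its local background, in both channels and before any subtraction. The same deposited files hold a log10 ratio that the software had corrected for background and dye, per their headers. A value table of the authors holds these log10 ratios as HepKO over WT, to rounding, with a median of 0 in every column. Both kinds of log10 ratio served as alternatives. Further steps are not given in the sources used here.

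Background was corrected with normexp (offset 50) and dyes by loess within each array, in limma 3.58.1 under R 4.3.3, with the 1639 control spots of 45018 at weight 0. Outlier spots, by the flags for uniformity and for spot population (178 to 260 an array), were left out before the background model was fitted. That order was settled in an earlier analysis of these data, with the result of fitting on all spots known. No spot was saturated.

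Ratios were turned to HepKO over WT, and the dye-swapped arrays of a pair were averaged. Accessions matched to RefSeq names of GRCm38.p6 named 22951 of 41174 probes (55.7%), and 22835 probes were kept. Of several kept probes of a gene the brightest was used, and its pair values were tested against 0 with limma (lmFit, eBayes), with 1 residual degree of freedom and 3.13 prior ones. The fit was tested on simulated data. The number of arrays and pairs limits the precision, and differences between pairs were not tested.

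The 10 genes and the lists were chosen with earlier results of these data known. Named by rule were the 10 genes, 16 partner genes, Pnpt1, the sex-chromosome genes and up to 3 genes of a list, those with the largest absolute ratio, of which some lists show only the first. Other genes, such as list members at background and relatives of the 10 genes, were named after their values were seen. Lists are described by counts and medians, with no test. Some genes of the lists are not reported here by name.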

Additional observations from a re-analysis of the deposited data

Results flagged for a closer look

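Pnpt1 moved in opposite directions in the pairs on its brighter probe. Its log2 ratio of HepKO over WT was 0.31 and 0.058 on the arrays of the pair labelled male and -0.38 and -0.38 on those of the pair labelled female. The difference between the pairs was not tested, since each pair is 1 replicate.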

How the results depend on the processing

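In every setting tried, each of the 10 genes that was measured had a mean ratio above 0, and no result turned its direction past the threshold. With normexp fitted on all spots, limma called 0 genes as higher and 0 as lower and 0 of the 10, with a smallest adjusted p of 0.0702 and an unadjusted p under 0.05 for 3020 genes. The SD of log2 ratios on replicate 2 of the pair labelled female was then 0.358, against 0.632 in the fit without outlier spots. In checks chosen after seeing the data, the fit on all spots gave 1486 higher, 501 lower and 8 of the 10 without that array, and 0, 0 and 0 of the 10 without replicate 2 of the pair labelled male (2712 at an unadjusted p under 0.05). With no filter on dim probes, limma called 0 higher, 0 lower and 0 of the 10, with a smallest adjusted p of 0.0689 and an unadjusted p under 0.05 for 4638 genes and 9 of the 10. Using HepKO in Cy3 alone, 686 genes were lower, against 431 from both orientations. Leaving out 1 array gave 906 to 1581 higher genes, 200 to 578 lower genes and 6 to 8 of the 10. The lowest counts, 906 and 200, came without replicate 2 of the pair labelled male. With probes averaged per gene, Lyz1 and Lyz2 did not pass, and with background population flags left out too, a check chosen after seeing the data, 7 of the 10 were measured and 6 rose. In that last check 1220 of 10552 genes passed as higher. Median centring moved the median of all genes to 0.18. Each slide holds 1 pair, so slide was not tested. The test is itself paired, since it sets ratios within pairs against 0. Signal close to background limits Ccr2, Cx3cr1, Gpnmb and Itgam.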

Other observations

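Relatives of the 10 genes, chosen after the values of those genes had been seen, gave further genes that passed as higher. In the chemokine receptor family, Ccrl2, a non-signalling receptor that presents chemerin, rose by 3.22 ± 0.40 (adjusted p = 0.0205). Ccr3 at 0.13 ± 0.17 and Xcr1 at -0.03 ± 0.14 did not pass. In the TREM family, Treml4 rose by 1.76 ± 0.19 (adjusted p = 0.0166), and Trem1, Trem3 and Treml1 had 0.18, 0.49 and 0.68 and did not pass (adjusted p = 0.431, 0.145 and 0.0774). These 3 genes were above background on no WT array.

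Among the tetraspanins, Cd63 (3.71 ± 0.16) and Cd53, a pan-leukocyte member (1.98 ± 0.27, adjusted p = 0.0249), rose, as Cd9 did. Cd37, Cd82, Cd151 and Tspan8 had 0.21, -0.09, 0.27 and 0.31 and did not pass. The integrin chain Itgal, which encodes CD11a of leukocytes, rose by 1.89 ± 0.24 (adjusted p = 0.0214). Pmel, the closest relative of Gpnmb, had -0.14 ± 0.15 and did not pass (adjusted p = 0.542).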
